A study of Homo sapiens with 4 samples.

Results

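In Huh7 cells with overexpressed USF1, 3344 regions near the ends of protein-coding genes were called as peaks in the second of a pair of ChIP-seq peak lists and had no overlapping peak in the first. They were chosen in 3 steps from the second list (IP 2 against input 2): no base shared with a peak of the first list (IP 1 against input 1), a place on chromosomes 1 to 22 or X, and a peak centre within 1 kb of the start or end coordinate of a protein-coding gene in the RefSeq annotation of GRCh38. The second list held 27325 peaks, so these were 12.2% of it, and both lists together held 41625. The second list had 5252 peaks near gene ends in all, and the other 1908 overlapped a peak of the first list and are called shared here. A further 18624 peaks of the second list overlapped none in the first and lay away from gene ends.

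The 4 libraries were 2 immunoprecipitations with an anti-FLAG antibody and 2 inputs, each from Huh7, an established human hepatocellular carcinoma line. The series' design text states that the cells overexpressed USF1, and the vector and promoter that drove it are not given in the sources used here, nor do the labels say which protein carried the FLAG tag. Cells without overexpressed USF1 and IgG controls were not analysed here, and the labels do not say whether the replicates came from separate cultures. A peak list gives no expression level, so the identity of the line could not be checked against its markers.

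USF1 is a transcription factor of the basic helix-loop-helix leucine zipper family. It binds DNA as a dimer, with itself or with its relative USF2, at the E-box CACGTG, a palindrome that reads the same on both strands. It is best known at promoters of genes of lipid and glucose metabolism in the liver, and it shares its core motif with MYC, the MiT/TFE factors of lysosomal gene control and the CLOCK-BMAL1 dimer.

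Promoter sequences are shown first because the E-box content of these promoters differed between the list 2 only peaks and the shared ones and is not one of the peak values that chose them. All are from RefSeq, build GRCh38.p14, read 5′ to 3′ on the strand of the gene and upstream of its annotated start, and capitals mark each CACGTG. The first 6 belong to the genes of highest fold over input among list 2 only peaks whose promoter held the hexamer upstream of the start. Only promoters that lay wholly inside the peak, with a start at the outer coordinate of the gene, were taken, and the genes were picked after their values were seen. They are LRIG3 (chr12:58920596-58920671, minus strand), SEPTIN2 (chr2:241315215-241315290, plus), RIMOC1 (chr5:41904300-41904343, plus), PPFIBP2 (chr11:7513901-7513976, plus), KIDINS220 (chr2:8837614-8837661, minus) and KHDRBS1 (chr1:32013618-32013683, plus).
LRIG3: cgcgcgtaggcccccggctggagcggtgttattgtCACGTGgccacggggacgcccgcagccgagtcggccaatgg
SEPTIN2: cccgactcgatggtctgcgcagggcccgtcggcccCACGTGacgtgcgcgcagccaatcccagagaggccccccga
RIMOC1: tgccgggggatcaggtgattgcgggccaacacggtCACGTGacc
PPFIBP2: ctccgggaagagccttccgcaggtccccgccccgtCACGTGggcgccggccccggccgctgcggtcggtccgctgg
KIDINS220: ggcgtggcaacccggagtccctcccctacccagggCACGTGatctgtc
KHDRBS1: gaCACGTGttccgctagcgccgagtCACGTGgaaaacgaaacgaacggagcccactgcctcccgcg

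The next 3, chosen the same way, belong to list 2 only peaks of similarly high fold and hold no CACGTG in the 250 bases before the start. They are ATP6V0C (chr16:2513476-2513725, plus), EBP (chrX:48521558-48521807, plus) and TFB1M (chr6:155314485-155314734, minus). ATP6V0C also has a shared peak at its other end, so its window counts with the shared class in the promoter shares below.
ATP6V0C: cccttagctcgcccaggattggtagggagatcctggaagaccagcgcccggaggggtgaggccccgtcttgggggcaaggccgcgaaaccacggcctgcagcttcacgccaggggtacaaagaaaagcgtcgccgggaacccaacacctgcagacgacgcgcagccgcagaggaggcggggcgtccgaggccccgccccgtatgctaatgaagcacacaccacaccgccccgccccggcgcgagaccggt
EBP: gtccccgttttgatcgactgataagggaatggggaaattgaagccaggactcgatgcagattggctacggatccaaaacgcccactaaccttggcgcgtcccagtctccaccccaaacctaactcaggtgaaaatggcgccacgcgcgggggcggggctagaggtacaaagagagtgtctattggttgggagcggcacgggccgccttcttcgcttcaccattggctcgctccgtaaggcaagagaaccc
TFB1M: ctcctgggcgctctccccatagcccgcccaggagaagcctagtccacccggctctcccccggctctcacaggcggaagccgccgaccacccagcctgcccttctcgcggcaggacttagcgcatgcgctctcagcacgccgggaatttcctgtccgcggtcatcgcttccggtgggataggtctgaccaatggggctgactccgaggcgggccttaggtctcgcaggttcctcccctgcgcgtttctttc

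For comparison, the upstream sequences at the shared peaks of highest fold are those of AMDHD2 (chr16:2520257-2520370, plus) and CLCN7 (chr16:1475029-1475110, minus). AMDHD2, a deacetylase of amino sugar metabolism, has 4 copies of the hexamer and CLCN7, a chloride transporter of the lysosome, has 2.
AMDHD2: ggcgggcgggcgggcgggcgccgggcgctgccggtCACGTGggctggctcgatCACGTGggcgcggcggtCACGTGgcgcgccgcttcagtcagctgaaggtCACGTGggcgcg
CLCN7: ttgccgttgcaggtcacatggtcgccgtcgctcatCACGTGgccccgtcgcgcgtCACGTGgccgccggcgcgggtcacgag

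The summit of the KIDINS220 peak lay 0.5 bp from the centre of its E-box, that of RIMOC1 4.5 bp and that of SEPTIN2 7.5 bp. The distances were larger at LRIG3 (29.5 bp), PPFIBP2 (44.5 bp) and KHDRBS1 (62.5 bp, to the nearer of 2 copies). In the shared pair the nearest copy was 4.5 bp from the summit at AMDHD2 and 2.5 bp at CLCN7. Of the 20 list 2 only peaks of highest fold that contained a whole promoter window, 6 held the hexamer in it, those of LRIG3, SEPTIN2, EXOC1, RIMOC1, LRRC37B and PPFIBP2. A match is a description of the letters in this window and does not show where the protein was bound.

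All tag counts, folds, scores and false discovery rates (FDRs) of single peaks are the authors' values from the second list. A tag is an IP read kept after filtering, the fold is the peak's enrichment over the local input, the score is −10 log10 of the peak's p-value, and the FDR is in percent. These values decided which regions entered the second list, so they are given without a test, and with 1 list per replicate they carry no replicate error. After filtering, the IP libraries held 43942638 tags (IP 2) and 47165647 tags (IP 1), and the inputs 43562726 and 46345938, so the library with more peaks had the fewer IP tags. The shared peaks below are also given with their second-list values.

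The list 2 only gene-end peaks were lower and somewhat narrower than the shared ones. Their median was 71 tags (interquartile range 50 to 105), against 99 (68 to 143) at shared peaks. The median width was 1208 bp against 1320 bp, so that width differed less than tags, and the tag density was 5.85 against 7.03 tags per 100 bp. Fold over input had a median of 5 (4.23 to 6.02) against 6.56 (5.16 to 9.91).

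The fold distributions separated most at the top. A fold of at least 8 was reached by 215 of the 3344 list 2 only peaks (6.43%) and by 694 of the 1908 shared peaks (36.4%). An FDR of 5% or less was met by 1536 list 2 only peaks (45.9%) and by 76.9% of the shared, and the median FDR was 6.38% against 0.65%. Counted from the other side, list 2 only peaks made up 82.3% of the gene-end peaks of fold under 4, 78.5% from 4 to 5, 69.3% from 5 to 6, 60.2% from 6 to 8, 35.1% from 8 to 12 and 5.19% (18 of 347) at 12 or more. These bands, like the tag bands used later, were chosen after the values were seen.

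**Figure D1:**
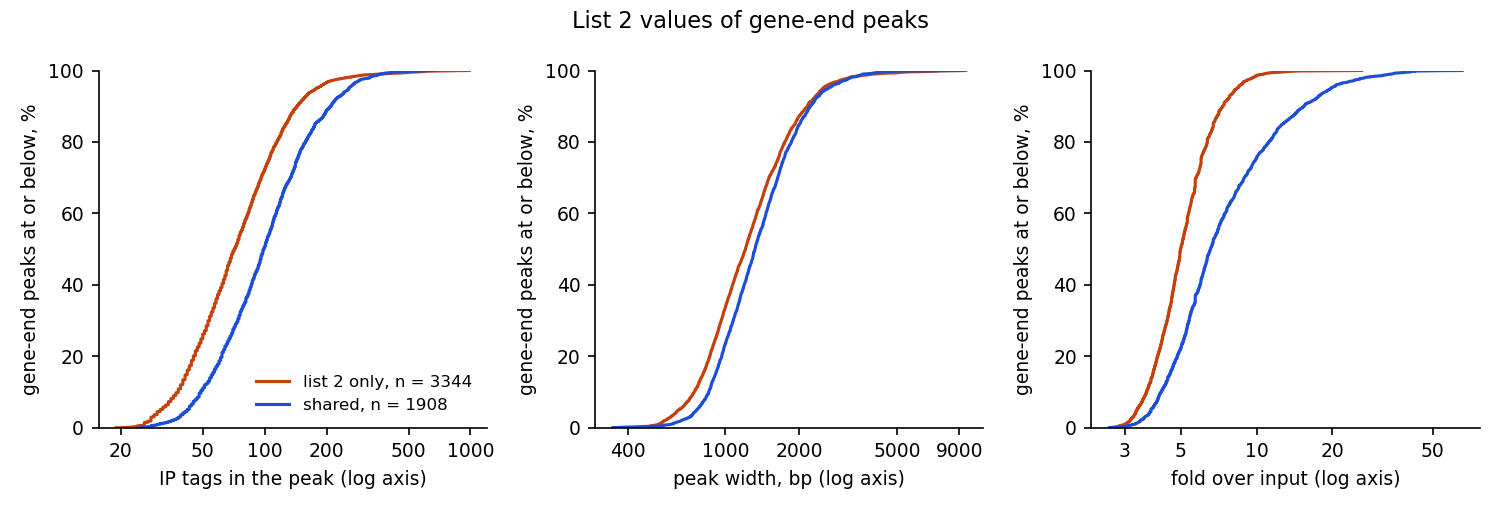
Cumulative distributions of IP tags, peak width in bp and fold over input (log horizontal axes) for the 3344 list 2 only and the 1908 shared gene-end peaks, with the percent of peaks at or below each value on the vertical axis. The width curves lie close together (medians 1208 and 1320 bp), and the fold curves lie further apart (medians 5 and 6.56, upper quartiles 6.02 and 9.91).

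Peaks found only in the second list but away from gene ends were smaller still in tags and width, though not in fold. Their medians were 43 tags, 804 bp and a fold of 5.41, and 18.9% had an FDR of 5% or less. List 2 only peaks at gene ends thus had more tags, over a greater width, at a slightly lower fold than those elsewhere.

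Few of the list 2 only gene-end peaks were near misses of a first-list peak. Only 13 lay within 100 bp of one, 69 (2.06%) within 1 kb and 392 (11.7%) within 10000 bp, and the median gap was 62756.5 bp. Away from gene ends 12.7% lay within 10000 bp, with a median gap of 66285.5 bp. At the edge of the rule, the peak at ORC4, an origin recognition subunit, and MBD5 adjoined a first-list peak with a gap of 0 bp (25 tags, fold 5.31), and the one at COTL1, an actin-binding protein, was 10 bp away (73 tags, fold 5.71). On the shared side, the peak at GADD45A, a stress-induced growth arrest gene, overlapped by 25 bp (36 tags, fold 5) and that of ATG14, an autophagy factor, by 46 bp (42 tags, fold 5.63).

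For the distance rule, the members just inside 1 kb were at OSMR, the oncostatin M receptor, with a centre 999.5 bp from the gene's start (616 tags, fold 4.47), and at G3BP1, a stress granule protein, at 998 bp (26 tags, fold 4.96). The list 2 only peaks just outside were at PDHB, a pyruvate dehydrogenase subunit, at 1000.5 bp (40 tags, fold 3.97), and at SP7, an osteoblast transcription factor, at 1001 bp (70 tags, fold 3).

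RELB carried the highest fold of all list 2 only gene-end peaks. It encodes a subunit of the NF-kB transcription factors that acts in the non-canonical arm of the pathway. Its peak, chr19:45000774-45002512, had 173 tags, a fold of 26.11 and an FDR of 0%, with its centre 179 bp inside the gene from the start coordinate. The nearest first-list peak was 109444 bp away. ATP6V1C1, subunit C of the cytosolic V1 sector of the vacuolar proton pump, followed with 107 tags, a fold of 21.6 and an FDR of 0% at chr8:103020563-103021643, with its centre 20 bp from the gene's start.

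The next 8 by fold were of mixed function. C14orf132 had 63 tags at a fold of 17.14. TNFSF9, the ligand of the T cell costimulatory receptor 4-1BB, had 81 tags at 16.86, and this peak lay 371 bp beyond the 3′ end of the gene, not at its start. LRIG3, a leucine-rich repeat membrane protein, had 105 tags at 15.06. They were followed by ADISSP, an adipose-secreted signalling protein (87 tags, 14.29), and SUB1, a transcriptional coactivator (613 tags, 14.17). ATP6V0C, the proteolipid that forms the membrane ring of the proton pump, had 146 tags at 13.99, STK26, a protein kinase, had 73 at 13.81, and the promoter between SEPTIN2, a filament-forming GTPase, and HDLBP, an RNA-binding protein, had 53 at 13.46. All 10 had an FDR of 0.3% or less, and their tags ran from 53 to 613, so high fold did not mark the peaks with most tags.

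ATP6V0C had a list 2 only peak at its start and, at its other end, the shared gene-end peak of highest fold. The shared peak, at chr16:2518772-2521328 near the 3′ end of ATP6V0C and the start of AMDHD2, had 461 tags at a fold of 65.37. In all, 106 genes had a peak of each kind.

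The most tags were found in a stretch of chromosome 5. The 5 highest members were at the 3′ end of EGFLAM, an extracellular matrix protein (987 tags), between CCT5, a chaperonin subunit, and ATPSCKMT, a lysine methyltransferase of mitochondria (873), at AHRR, the repressor of the aryl hydrocarbon receptor (833), at MTMR12, a myotubularin family protein (827), and at LPCAT1, a lysophospholipid acyltransferase (718). Their folds were low, at 3.72, 4.16, 2.75, 4.22 and 2.99, and their widths ran from 7223 to 9542 bp. In the same order their FDRs were 12.19%, 0.29%, 19.76%, 14.78% and 1.32%. All 5 lay on the first 50 Mb of the chromosome. That stretch held 33 list 2 only gene-end peaks with a median of 442 tags, a width of 3580 bp and a fold of 4.16, whereas the 132 on the rest of chromosome 5 had a median of 79.5 tags and the 3179 on other chromosomes 70. Only 4 shared gene-end peaks lay on it, with medians of 205 tags, 1132 bp and a fold of 9.425. Shared peaks had a median of 101.5 tags on the rest of chromosome 5 and 98.5 on other chromosomes.

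Of the 50 members with most tags, 24 were on this stretch, which was picked out after the values were seen. Its part in the values was not tested, but medians without chromosome 5 are among the settings compared at the end. SUB1, MRPL36 and NDUFS6, RIMOC1 and OSMR lie on it. Across whole chromosomes the members ran from 7.95 per 100 protein-coding genes on chromosome 21 to 21.0 on chromosome 16, and their median tags from 45 on chromosome 4 to 100 on chromosome 1.

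Most list 2 only gene-end peaks lay where transcription starts. The annotation table gives the strand of a gene through its promoter window, and 2709 of the 3344 peaks (81.0%) had a strand for every gene at the peak. Of these, 2513 (92.8%, 95% Wilson interval 91.7 to 93.7) were within 1 kb of a start of transcription, taken as the 5′ coordinate of a gene, and 196 (7.24%) only at a 3′ end, as at TNFSF9 and EGFLAM. Among shared peaks 97.4% were at a start, a difference of -4.66 percentage points (Newcombe interval -5.90 to -3.38). Which end of a gene a peak took was not part of the rule, but peaks are not replicates, and these intervals cover counting error only.

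List 2 only peaks were less often between 2 genes. The ends of 2 or more protein-coding genes were within 1 kb of 576 peaks (17.2%), against 21.4% of shared ones (difference -4.21 points, -6.48 to -1.99). CCT5 with ATPSCKMT, SEPTIN2 with HDLBP and the mitochondrial genes MRPL36 with NDUFS6 are examples. The end of a gene that is not protein-coding was also near 21.1% of list 2 only peaks and 25.5% of shared peaks (-4.38 points, -6.80 to -2.01).

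Summits of list 2 only peaks were spread more widely around the start. Where the start of the promoter window lay within 1 kb of the peak centre, the median summit was 42 bp upstream of it (-42 bp, interquartile range -153 to 137, n = 2511) and 57.6% were upstream. For shared peaks the median was -79 bp (-187 to 11.8, n = 1582) with 72.9% upstream.

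**Figure D2:**
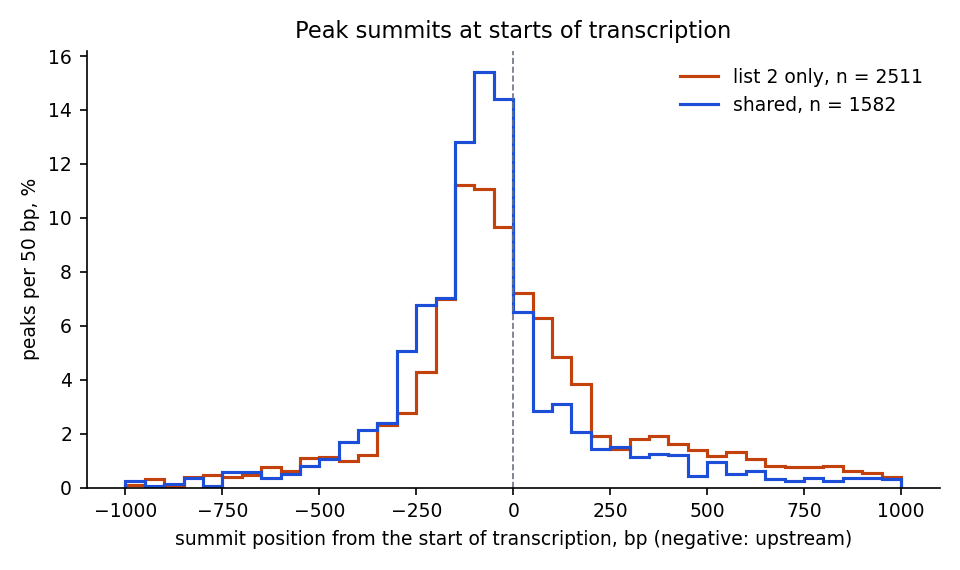
Position of the peak summit relative to the start used in the promoter window, in bp (negative is upstream), as percent of peaks per 50 bp for list 2 only (n = 2511) and shared (n = 1582) peaks with such a start within 1 kb of the peak centre. The list 2 only summits reach further into the gene, with a median of -42 bp against -79 bp.

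The E-box set list 2 only promoters far apart from shared ones. A promoter window runs from 250 bases before to 50 after the start, and windows were at hand for 3087 of the 3721 genes with only list 2 only peaks and for 1967 of the 2303 genes with a shared peak. None of those on chromosome 8 were at hand. Each gene has 1 window, the one nearest its 5′ coordinate, and its start lay within 1 kb of the peak centre for 2745 of the 3087 (88.9%) and 91.9% of the 1967. CACGTG was present in 262 of the 3087 windows (8.49%, 7.55 to 9.52) and in 554 of the 1967 (28.2%, 26.2 to 30.2), a difference of -19.7 points (-21.9 to -17.5). Among all 15812 windows, which include the 3087 and the 1967 shared ones, the share was 8.82%. List 2 only promoters held the hexamer about as often as this whole set (-0.335 points, -1.37 to 0.787), whose share the shared windows raise. Against the 10758 windows of genes with no gene-end peak in the second list (5.38%) they held it more often, by 3.11 points (2.07 to 4.22). Among other palindromes of the same composition, TGCGCA passed this gap (6.21 points) and GACGTC came near it (3.05). The rest had smaller gaps, from 0.488 points (ACCGGT) to 2.31 (AGCGCT). With only the windows that start within 1 kb of the peak centre, the E-box share was 8.52% in the list 2 only class and 29.9% in the shared class. Windows of neighbouring genes can overlap, so 1 E-box can be counted for 2 genes, and the intervals treat windows as separate.

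The longer form CACGTGA, searched on both strands as CACGTGA or TCACGTG and contained in the matches to the hexamer, was found in 3.89% of list 2 only windows, 22.1% of shared ones and 1.89% of those without a peak. For CACATG or CATGTG, an E-box with 1 base changed, the order was different, at 5.54%, 8.08% and 9.53%.

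In base composition, by contrast, the list 2 only promoters were much like the shared ones. Median GC content was 66.0% in list 2 only windows, 66.3% in shared ones and 60.3% in windows without a peak, and the median number of CpG dinucleotides was 27, 28 and 17. GGGCGG (or CCGCCC), the core that Sp factors bind, was in 72.5%, 76.0% and 51.0%. CCGGAA (or TTCCGG), the ETS factor core, was in 30.4%, 31.6% and 18.9%. ATTGGC (or GCCAAT), the CCAAT box that NF-Y binds, was in 21.3%, 25.8% and 15.1%. These 3 motifs were chosen after the E-box result was known.

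Of the 7 other palindromes of 6 bases with the same composition and CG at the centre, none showed a gap between list 2 only and shared windows of the size of the E-box. List 2 only against shared, GACGTC was in 8.39% and 9.35%, TGCGCA in 14.6% and 17.7%, TCCGGA in 9.14% and 9.96%, and AGCGCT in 9.56% and 9.20%. CTCGAG (5.80% and 6.10%), GTCGAC (2.17% and 2.19%) and ACCGGT (2.17% and 3.25%) were rarer. The largest of these differences was -3.05 points at TGCGCA (-5.17 to -0.976).

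The E-box share was higher at high fold in both classes, and lower in the list 2 only class in each band of fold. The fold of a gene was that of its strongest gene-end peak in the second list, which need not lie at the promoter window. In list 2 only windows it was 5.30% at a fold under 4, 5.24% from 4 to 5, 7.60% from 5 to 6, 12.5% from 6 to 8, 44 of 191 from 8 to 12 and 30.8% at 12 or more (4 of 13). The shared shares in the same bands were 7.52%, 12.4%, 12.9%, 18.3%, 41.7% and 64.1%. The interval of the difference included 0 only under a fold of 4 (-2.22 points, -8.20 to 1.80), and from 8 to 12 the difference was -18.6 points (-26.0 to -10.5).

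With tags the classes behaved differently. From under 50 tags to 150 or more, the share in list 2 only windows stayed between 7.59% and 9.34%, and that in shared windows ran from 15.3% to 42.2%. The median peak at a list 2 only promoter with the E-box had a fold of 5.81 and 74.5 tags, and without it 4.96 and 74. At shared promoters the medians were 10.64 with it and 6.05 without.

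**Figure D3:**
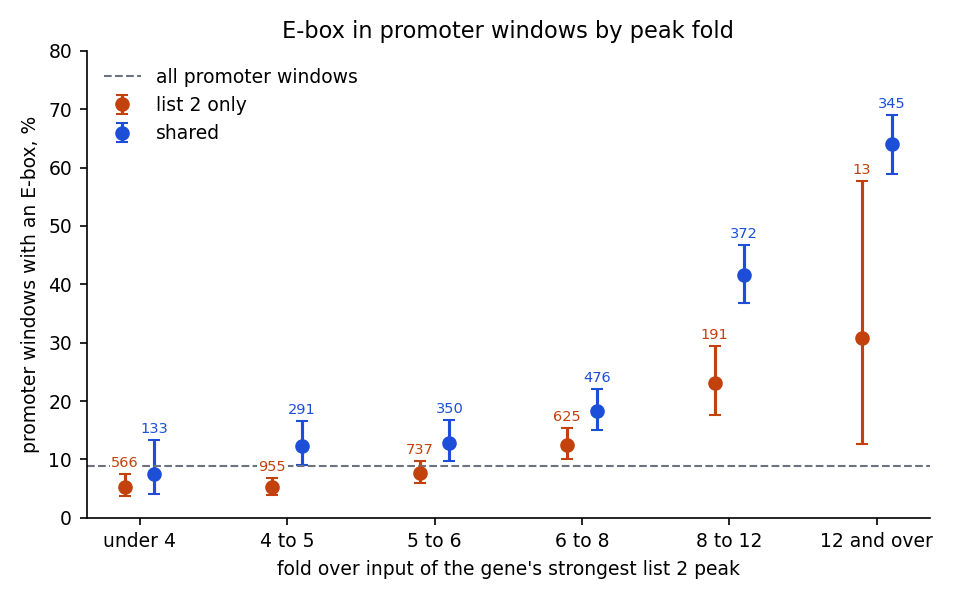
Percent of promoter windows with CACGTG by fold over input of the gene's strongest second-list peak, for list 2 only and shared genes. Bars are 95% Wilson intervals, numbers above the points count windows, and the dashed line marks 8.82% for all windows. Both classes climb with fold, from 5.30% to 30.8% and from 7.52% to 64.1%, and the list 2 only points stay below the shared ones.

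Where a promoter window with an E-box lay wholly inside a list 2 only peak, the summit tended to be near it, though less closely than in the shared class. The median distance from summit to the nearest E-box was 51.5 bp, and 108 of 218 (49.5%, 43.0 to 56.1) were within 50 bp. In the shared class the median was 17.5 bp and 76.8% were within 50 bp. For the 7 other palindromes pooled, the medians were 126.5 bp (21.6% within 50 bp) and 110.5 bp (28.1%).

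**Figure D4:**
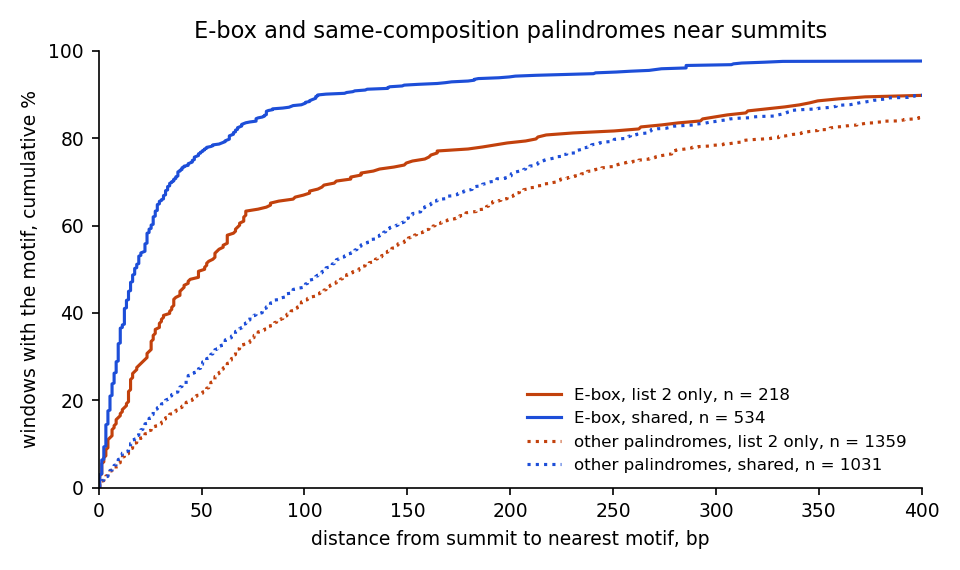
Cumulative percent of promoter motifs inside a peak by distance to the peak summit in bp, for CACGTG and for 7 other palindromes of 6 bases, in list 2 only and shared peaks. The E-box curve of the list 2 only peaks (median 51.5 bp) runs between the shared E-box curve (17.5 bp) and both curves of the other palindromes (126.5 and 110.5 bp).

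Of 19974 protein-coding genes, 3827 (19.2%) had a list 2 only peak at an end and 2303 (11.5%) a shared one. A list 2 only peak of fold 8 or more was at 255 genes (1.28%), and one of FDR 5% or less at 1818 (9.1%). The median fold over the 3827 genes was 5.03. Gene lists are described below by their counts beside these shares. The lists are of unequal size and a few genes are in 2 of them. Neighbouring genes of a list can share 1 peak, as H2AC7 and H3C4 among the histones do, and each gene is then counted. Genes are named by fold with no FDR limit. Peaks such as those of XRCC5 (14.7%), RAB8B (13.8%) and WARS1 (12.6%) had an FDR above 5%.

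The vacuolar proton pump, which acidifies lysosomes, had list 2 only peaks at 9 of 24 genes (37.5%) and shared peaks at 8, with 1 gene counted in both. Besides ATP6V1C1 and ATP6V0C, they included ATP6V0E2, a small subunit of the membrane sector (99 tags, fold 8.23, with an E-box in its window), and ATP6AP2, an accessory subunit (128 tags, 7.62). The median fold was 6.4.

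Other lysosomal genes with a gene-end peak were mostly in the shared class. Of 39 genes, 8 (20.5%, near the 19.2% of all genes) were list 2 only, 19 were shared and 12 had neither. TMEM192, a lysosomal membrane protein, had 85 tags at a fold of 10.27, LAMP2, a major lysosomal membrane glycoprotein, 46 at 7.44, OSTM1, the partner of CLCN7, 55 at 6.72, and NPC2, a cholesterol transfer protein, 65 at 6.29. In autophagy 8 of 34 genes (23.5%) were list 2 only and 10 shared. GABARAP, which couples to lipid on the autophagosome, had a peak near its 3′ end (62 tags, 9.21), and its relative GABARAPL1 had 28 tags at 8.5. ATG10, an enzyme of the conjugation system, had 109 at 8.34, and OPTN, a cargo receptor, 31 at 7.79 with an FDR of 22.5%.

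In the mTORC1 list 11 of 32 genes (34.4%) were list 2 only and 12 shared. MLST8, a subunit of the mTOR complexes, had 80 tags at a fold of 10.9, SESN3, a sestrin, 175 at 6.52, LAMTOR3, a Ragulator subunit, 39 at 6.35, and TFE3, a transcription factor of lysosomal genes, 88 at 6.23. The median fold of the list was 4.2, below the 5.03 of all genes with a list 2 only peak.

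The NF-kB pathway had 6 list 2 only genes of 27 (22.2%, near the share of all genes) and 5 shared. After RELB came BCL3, a nuclear IkB protein (158 tags, fold 8.16), NFKB2, the precursor of the p52 subunit that pairs with RELB (53 tags, 6.32), and BIRC2, a ubiquitin ligase of the pathway (65 tags, 4.72). RELB stood far from the others, as the median of the 6 was 5.52.

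Among relatives of USF1, the bHLH-ZIP factors, 8 of 23 (34.8%) were list 2 only and 6 shared. After TFE3 they were SREBF1, the master regulator of lipid synthesis (59 tags, fold 5.71), TFAP4 (71 tags, 4.42) and USF3 (67 tags, 3.96), and the median was 3.89. The bZIP factors had 12 of 43 (27.9%) list 2 only and 11 shared, led by CREB5 (37 tags, 8.16, near its 3′ end), MAFF, a small MAF protein with an E-box in its window (132 tags, 8.16), CREM (75 tags, 5.71) and NFE2L1, a regulator of proteasome genes (161 tags, 5.56).

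Clock genes were list 2 only at 4 of 24 (16.7%) and shared at 9. CIART, a repressor of CLOCK-BMAL1 (159 tags, fold 6.37), and PER1, a core repressor (41 tags, 6.31), held an E-box in their windows. CRY2, another repressor (120 tags, 4.36), and BMAL1 itself (69 tags, 3.65) did not.

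In the list for the unfolded protein response and degradation from the endoplasmic reticulum, 8 of 30 genes (26.7%) were list 2 only and 11 shared. EDEM1 (117 tags, fold 5.95) and EDEM3 (156 tags, 4.43), which act on misfolded glycoproteins, MBTPS1, the protease that cleaves SREBP and ATF6 (135 tags, 5.34), and SDF2L1, a chaperone cofactor (44 tags, 4.76), were the highest.

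The cell cycle list had the highest share of the 32 lists, with 15 of 36 genes (41.7%, 27.1 to 57.8) list 2 only and 6 shared. CDKN2D, an inhibitor of CDK4 and CDK6, had 67 tags at a fold of 8.5, CCND3, a D-type cyclin, 121 at 8.05, CDC25A, a CDK-activating phosphatase, 123 at 6.75, and RBL1, a pocket protein, 107 at 6.71. The CCND3 peak is also counted for TAF8. DNA repair followed with 19 of 47 (40.4%) list 2 only and 16 shared. Its highest were PALB2, the partner of BRCA2 (122 tags, 7.94), LIG4, the ligase of end joining (65 tags, 6.92), XRCC5, the Ku80 subunit (36 tags, 6.67), and BRCA1 (37 tags, 6.38). The BRCA1 peak is also counted for the neighbouring gene NBR1. None of the 19 reached a fold of 8. Such a fold was rare among all genes with a list 2 only peak (255 of 3827). Other lists, such as glucose metabolism and nucleolar genes, had none either.

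Glucose metabolism had 11 of 31 genes (35.5%) list 2 only and 4 shared, led by the glycolytic pyruvate kinase PKM (57 tags, fold 7.97), the liver glycogen phosphorylase PYGL (69 tags, 7.08), TXNIP, a glucose-responsive arrestin (89 tags, 7.02), and the glycolytic kinase PGK1 (53 tags, 6.8). Sterol and fatty acid metabolism had 12 of 37 (32.4%) and 7 shared. SQLE, the squalene epoxidase, had 48 tags at 9.92, and MVD, of the mevalonate pathway, 54 at 6.46.

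Nucleolar and cytosolic ribosomal protein genes had shares above the 19.2% of all genes. Their intervals were 19.6% to 47.0% and 24.2% to 43.9%. Nucleolar genes had 13 of 41 (31.7%), and 13 shared, with UTP15 (57 tags, fold 7.7), NCL, nucleolin (62 tags, 7.08), NOP58, of box C/D particles (39 tags, 6.38), and DKC1, dyskerin (58 tags, 6.23). Cytosolic ribosomal proteins had 28 of 84 (33.3%), with 12 shared, among them RPS16 (88 tags, 7.51), with a lowest fold of 3.36. Such genes have many processed copies in the genome, and how reads there were placed was not tested.

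Mitochondrial ribosomal proteins had 23 of 77 (29.9%), with 12 shared, among them MRPS2 (227 tags, fold 9.55), MRPS14 (82 tags, 9.37) and MRPL36 (673 tags, 8.67, on chromosome 5, in 1 peak with NDUFS6). Oxidative phosphorylation had 23 of 86 (26.7%), with 17 shared, among them COX5A of complex IV (71 tags, 8.5) and SDHD of complex II (72 tags, 8.19). Initiation factors had 11 of 41 (26.8%) and 18 shared, led by EIF3K (54 tags, 7.65) and EIF4G1 (40 tags, 7.44), both with the peak near the 3′ end. Aminoacyl-tRNA synthetases had 10 of 37 (27.0%) and 6 shared, led by IARS1 (56 tags, 7.53, with an E-box), WARS1 (33 tags, 7.36) and AARS1 (104 tags, 6.41).

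Splicing factors had 15 of 52 genes (28.8%) and 16 shared, led by PRPF6 of the tri-snRNP (176 tags, fold 9.59), SF3A2 of the U2 particle (78 tags, 7.44) and SRSF4 (93 tags, 7.41). Mediator and TFIID, which link factors to RNA polymerase II, had 13 of 44 (29.5%) and 6 shared, led by MED7 (88 tags, 8.5) and TAF8 (121 tags, 8.05, in 1 peak with CCND3). Proteasome genes had 13 of 48 (27.1%) and 5 shared, led by PSMD12 (67 tags, 7.94) and PSME2 (59 tags, 6.73).

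The list 2 only shares of RAB GTPases, solute carriers and ZNF zinc fingers were near the 19.2% of all genes. RAB GTPases had 13 of 63 (20.6%) and 16 shared (25.4%, against the 11.5% of all genes), solute carriers 64 of 379 (16.9%) and 47 shared, and ZNF zinc fingers 83 of 509 (16.3%) and 46 shared. SLC31A2, a copper transporter family member (75 tags, fold 11.04), and SLC46A1, the proton-coupled folate transporter (53 tags, 7.69), were among the carriers. RAB8B (66 tags, 6.81) led the RAB genes and ZNF644 (94 tags, 8.74) the zinc fingers.

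Olfactory receptors had 5 of 392 (1.28%, 0.546 to 2.95) and keratins with keratin-associated proteins 4 of 149 (2.68%, 1.05 to 6.70), both below the share of all genes. For histones (11 of 91, 12.1%) and the short lists of markers of other cell types the intervals included 19.2%. Several lists with shares above 19.2% had intervals that included it too. Among them were the autophagy, unfolded protein response, bHLH-ZIP, bZIP and aminoacyl-tRNA synthetase lists. Initiation and splicing factors, Mediator and TFIID, proteasome genes and oxidative phosphorylation were others. Immune markers had 1 of 15 (CD79A, 66 tags, fold 3.67) and neuronal and erythroid genes 2 of 16 (SNAP25, 67 tags, 6.72, and HBG2, 62 tags, 4.97). Fibroblast and endothelial markers had 0 of 14 (0 to 21.5%). Hepatocyte factors and products had 1 of 30 (3.33%, 0.591 to 16.7), the tyrosine aminotransferase TAT (56 tags, 5.49), and 0 shared. TAT, SNAP25 and HBG2 had no promoter window at hand, so whether their peaks lay where transcription starts was not read.

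**Figure D5:**
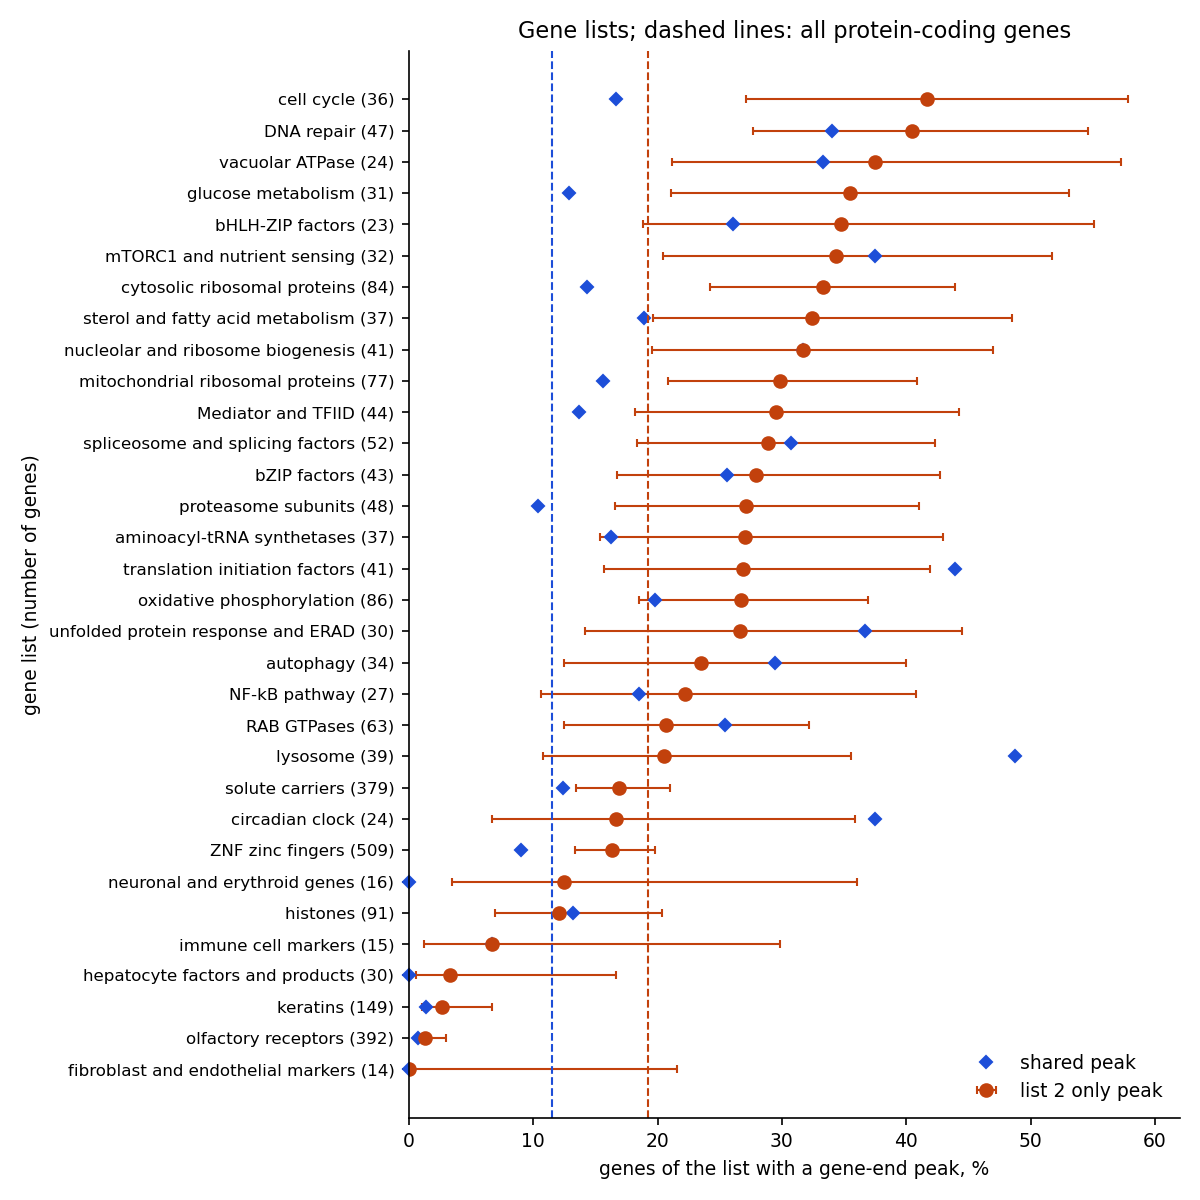
Percent of the genes of each of 32 lists with a list 2 only gene-end peak (circles, 95% Wilson intervals) or a shared one (diamonds), with the number of genes in brackets and dashed lines at 19.2% and 11.5% for all protein-coding genes. Cell cycle, DNA repair and proton pump genes are highest in the list 2 only class, and the lysosome list is highest in the shared class (19 of 39 genes).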

How the data were processed

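Chromatin immunoprecipitation with sequencing was read in 4 libraries of Huh7 cells, 2 IP and 2 input. Peaks were called with MACS 1.4.2 by the authors, once per IP against the input of the same number, at a p cutoff of 1e-05 and keeping at most 1 tag per position, per the file headers. Bowtie2, deepTools, HOMER and GRCh38 are named in the submitters' processing notes, with no version used here. Per the file headers, each deposited peak has a tag count, a fold ratio over input, a score (−10 log10 p) and an FDR in percent. No scaling of the deposited counts between lists is recorded per the file headers.

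From these, peaks were compared by overlap of at least 1 bp, and gene ends came from the RefSeq gene table. Strand and promoter sequence came from RefSeq windows, which matched 15812 of the 19974 protein-coding genes (82.1% on chromosomes that the table holds); 724 pairs of overlapping windows on opposite strands were all identical. Shares have 95% Wilson intervals and their differences Newcombe intervals. Counting of overlaps, distances and motifs was tested on simulated data. The analysis used Python 3.11.15, numpy 2.4.6, pandas 2.3.3, scipy 1.17.1 and matplotlib 3.10.9. Of 32 gene lists, 22 were written by hand and 10 drawn by symbol pattern.

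Named genes are the 10 of highest fold, the 5 of most tags, the members nearest each threshold and up to 4 genes of highest fold per list, and some of these are not reported here. The members, lists and bands were chosen with earlier results of these data known. Alternatives changed the distance, overlap, filters, motif and chromosomes used.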

Additional observations from a re-analysis of the deposited data

How the results depend on the processing

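Each value below replaces 3344 members at 3827 genes, with medians of 71 tags, 1208 bp and fold 5, 45.9% at an FDR of 5% or less, 92.8% at a start of transcription and 8.49% of promoters with CACGTG. Within 500 bp of a gene end, 95.3% were at a start. Within 5 kb there were 5308 members at 5938 genes, with 64 tags, 1105.5 bp, 37.8% at that FDR, 82.0% at a start and 7.18% with the E-box. An FDR of 5% or less left 1536 members at 1818 genes, with 91.5 tags, 1406 bp, fold 5.69, 96.5% at a start and 10.8% with the E-box. A fold of at least 8 left 215 at 255 genes, with 1042 bp, fold 8.86, 88.8% at that FDR and 23.6% with the E-box. A score of at least 100 left 1264 at 1509 genes, with 95 tags, 1434.5 bp, fold 5.82, 100% at that FDR, 97.5% at a start and 11.6% with the E-box. With CACGTGA or TCACGTG the share was 3.89%, and with CACATG or CATGTG 5.54%. Without replicate 1 all gene-end peaks of the second list count, which gave 5252 members at 6024 genes, 81 tags, 1247 bp, fold 5.41, 57.2% at that FDR, 94.5% at a start and 16.1% with the E-box, and without replicate 2 no member is left.

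Using the summit in place of the centre, a gap of up to 500 bp, a stricter overlap (0.5 of the shorter peak), leaving out chromosome 5, or keeping only windows that start within 1 kb of the peak centre (both added after the data were seen) moved none of these values beyond its interval or by 1.5 times. The E-box share of list 2 only promoters was below that of shared ones by 16.3 points (within 5 kb) to 28.9 points (fold of at least 8) over the settings of distance, overlap, filter, chromosome and window that were run. No paired analysis was possible because the lists are 1 per replicate and each peak value comes from a single IP and input, with no replicate error. The smallest members have 19 tags, where counting error is largest relative to the value.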
